A study of Homo sapiens with 6 samples.

Results

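The transcripts described are those of 30 genes of cholesterol and fatty acid synthesis, chosen as a fixed list of SREBP regulators and the enzymes and transfer protein that SREBPs control, out of 19330 genes listed with counts. They were compared between K562 cells transduced with control sgRNAs (sgCtrl) and with sgRNAs against N6AMT1 (sgN6AMT1), in 3 RNA-Seq libraries per condition, each from its own lentiviral transduction. K562 is an established human chronic myelogenous leukemia line, and both conditions carried the lentiviral vector with Cas9, passed puromycin selection and were grown in glucose-rich medium with fetal bovine serum until day 10 after infection. The cells are transduced populations, not clones, and the sgRNA of each library is not given in the sources used here. N6AMT1 encodes a methyltransferase of the cytosol and nucleus that methylates the translation release factor eRF1, and the study used RNA-Seq to ask whether its depletion alters the transcription of nuclear genes.

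Cells make cholesterol and fatty acids from acetyl-CoA. The mevalonate branch builds isoprenoid units up to farnesyl diphosphate, the sterol branch condenses these into squalene and converts it to cholesterol, and the fatty acid branch builds, elongates and desaturates acyl chains. Both routes are under SREBPs, transcription factors held in the membrane of the endoplasmic reticulum (ER). SCAP escorts SREBPs to the Golgi when sterols are low, where proteases release the active factor, and INSIG1 retains the complex in the ER when sterols are high. SREBP2, from SREBF2, acts mainly on sterol genes, and SREBP1, from SREBF1, mainly on fatty acid genes.

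The sgCtrl libraries held between 742470 and 866894 counts and the sgN6AMT1 libraries 959319, 5526904 and 4062363 in replicates 1 to 3, so that sgN6AMT1 replicate 1 was the library at the depth of the controls. N6AMT1 itself had 6, 5 and 9 counts with sgCtrl and 0, 18 and 16 with sgN6AMT1, that is 8.08 ± 2.31 against 2.40 ± 2.10 cpm (counts scaled to the library total; SD, n = 3 each; p = 0.1 by a two-sided exact permutation, which is as small as 3 libraries against 3 allow). OR11A1 and OR2M4, the targets of control sgRNAs, had 0 counts throughout, a level of at most 4.04 cpm in the shallowest library by the limit of 3 counts. The K562 markers fixed for the cell type were detected in every case. Of these, 5 of the 13 tested were differentially expressed, against 9.85% of all genes tested (the fit is given below). They were the fetal and embryonic globins HBG1, HBG2 and HBE1 and the myeloid CD33 (higher) and LMO2 (lower). Of the 13, 7 had negative log2 fold changes, and the median was -0.03. Summed over the 14 markers, the level ran from 11466 to 18825 normalized cpm in sgCtrl and from 18983.5 to 35703 in sgN6AMT1, most of it from HBG1 (mean 5578 in sgCtrl and 11488 in sgN6AMT1) and HBG2 (5322 and 11018). Of 11 markers of other lineages, CD8A and MS4A1 had 0 counts and CD3E had 0 counts in sgCtrl and sgN6AMT1 replicate 1. Summed, these 11 markers held 513 to 611 normalized cpm in sgCtrl and 730 to 846 in sgN6AMT1. The difference came mainly from the epithelial keratin KRT8, which rose from a mean of 363 to 609 (edgeR adjusted p = 0.00693), while EPCAM was at 155 and 124 (edgeR adjusted p = 0.228). The part of these markers in the results on lipid genes was not tested. In bulk RNA, fewer cells of a kind and less RNA per cell cannot be told apart.

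Most transcripts of lipid synthesis showed no change past the test, and FADS1 fell to 50.6% of its control level. The fit was edgeR's quasi-likelihood test over all genes that passed its filter on low counts, and genes were called differentially expressed where p, adjusted by Benjamini-Hochberg over all of them, lay under 0.05. Levels are given as normalized cpm, which are cpm scaled by TMM. Of the 30 genes, 29 passed the filter, and 2 of these were differentially expressed, FADS1 (lower) and EBP (higher), or 6.90% of those tested. Among all 8324 genes tested the share was 9.85%, with 5.09% higher and 4.76% lower. An unadjusted p under 0.05 was reached by 6 of the 29 and by 26.2% of all genes. The 3 values of one condition lay apart from those of the other for 7 of the 29, of which 5 were lower and 2 higher in sgN6AMT1, and for 29.2% of all genes (15.1% higher and 14.1% lower). The median log2 fold change of the 29 was -0.14, with 18 negative and 11 positive values, against a median of 0.0087 over all genes tested, of which 49.2% were negative. PMVK, which phosphorylates mevalonate phosphate, was the gene not tested, with 3 to 9 counts in the controls and 6, 52 and 32 in sgN6AMT1 replicates 1 to 3.

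**Figure D1:**
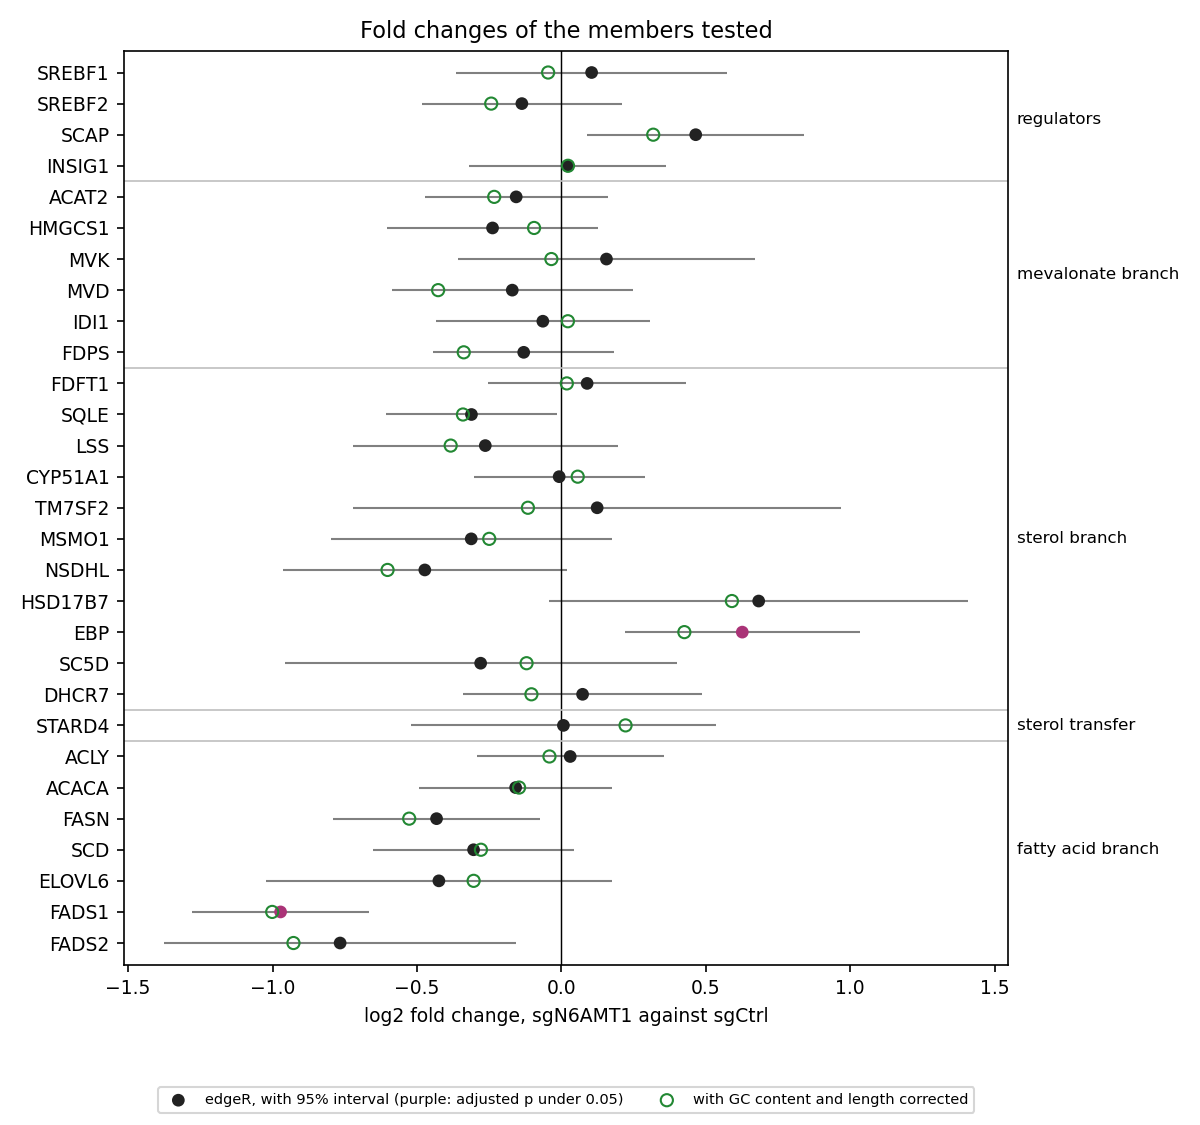
Log2 fold change of each of the 29 genes tested (sgN6AMT1 against sgCtrl, filled points with 95% intervals from edgeR, purple where the adjusted p is under 0.05) and the same with each library corrected for transcript GC content and length (open green circles). Grey lines separate the branches; FADS1 lies lowest at -0.97 and FADS2 next at -0.77, while most sterol genes have intervals that include 0.

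In the fatty acid branch, 6 of 7 transcripts had lower values in sgN6AMT1 and the median log2 fold change was -0.42, but FADS1 alone passed the test. FADS1 encodes the delta-5 desaturase, which makes arachidonic and eicosapentaenoic acid. In replicates 1 to 3 it had 340, 292 and 319 normalized cpm with sgCtrl and 145, 161 and 175 with sgN6AMT1. The conditions lay far apart, with the highest sgN6AMT1 library well below the lowest sgCtrl library. The level fell from 317 ± 24.1 to 161 ± 14.7 (SD, n = 3 each), or a log2 fold change of -0.97 with a standard error (SE) of 0.15 (95% interval -1.28 to -0.66, edgeR adjusted p = 6.44e-04). By p it stood at rank 33 of the 8324 genes tested, and by fold change at rank 182 from the lowest. FADS1 passed the threshold in each of 17 alternative fits, with log2 fold changes between -1.04 and -0.92.

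FADS2, the delta-6 desaturase that acts on the same polyunsaturated chains before FADS1, received far fewer counts, 26, 32 and 19 with sgCtrl and 13, 113 and 72 with sgN6AMT1. These are 34.9, 36.9 and 22.4 against 13.7, 20.6 and 18.5 normalized cpm. All sgN6AMT1 values were below the lowest sgCtrl value, by a narrow margin to sgCtrl replicate 3. The log2 fold change was -0.77 (SE 0.29, 95% interval -1.37 to -0.16, edgeR adjusted p = 0.101), which did not pass. It passed with the sgN6AMT1 libraries thinned to the depth of the controls (-1.15, edgeR adjusted p = 0.0419). Within each library, FADS1 received between 7.91 and 14.3 counts for every FADS2 count in sgCtrl and between 7.82 and 10.6 in sgN6AMT1, so that the ratio of the pair overlapped between conditions. With so few FADS2 counts in the shallower libraries, this ratio is too uncertain to show whether the pair fell together. Against FASN, which had more counts, the count ratio of FADS1 ran from 0.552 to 0.774 in sgCtrl and from 0.377 to 0.452 in sgN6AMT1, without overlap. Against ELOVL5, an elongase of polyunsaturated chains, it ran from 1.95 to 2.40 and from 1.13 to 1.52, also without overlap.

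FASN, the fatty acid synthase, had 614, 528 and 413 normalized cpm in sgCtrl and 321, 361 and 464 in sgN6AMT1. The conditions overlapped, since sgN6AMT1 replicate 3 exceeded sgCtrl replicate 3. Its log2 fold change was -0.43 (SE 0.17, edgeR adjusted p = 0.115). FASN passed without sgN6AMT1 replicate 3 (-0.59, edgeR adjusted p = 0.0220). ELOVL6, which elongates the palmitate that FASN makes, went from 25.3 ± 2.51 normalized cpm with sgCtrl to 18.9 ± 2.40 with sgN6AMT1 (SD, n = 3 each) without overlap, and its log2 fold change of -0.42 did not pass (edgeR adjusted p = 0.367). SCD, the delta-9 desaturase of saturated chains, had 201 ± 39.0 and 164 ± 14.8 (log2 fold change -0.30, edgeR adjusted p = 0.256). ACACA, which makes malonyl-CoA, was at -0.16 and ACLY, which makes cytosolic acetyl-CoA from citrate, at 0.03, with 95% intervals from -0.49 to 0.18 and from -0.29 to 0.35. FADS2, FASN and the transcripts of other branches given library by library beside FADS1, EBP and the regulators were picked after their values were seen.

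**Figure D2:**
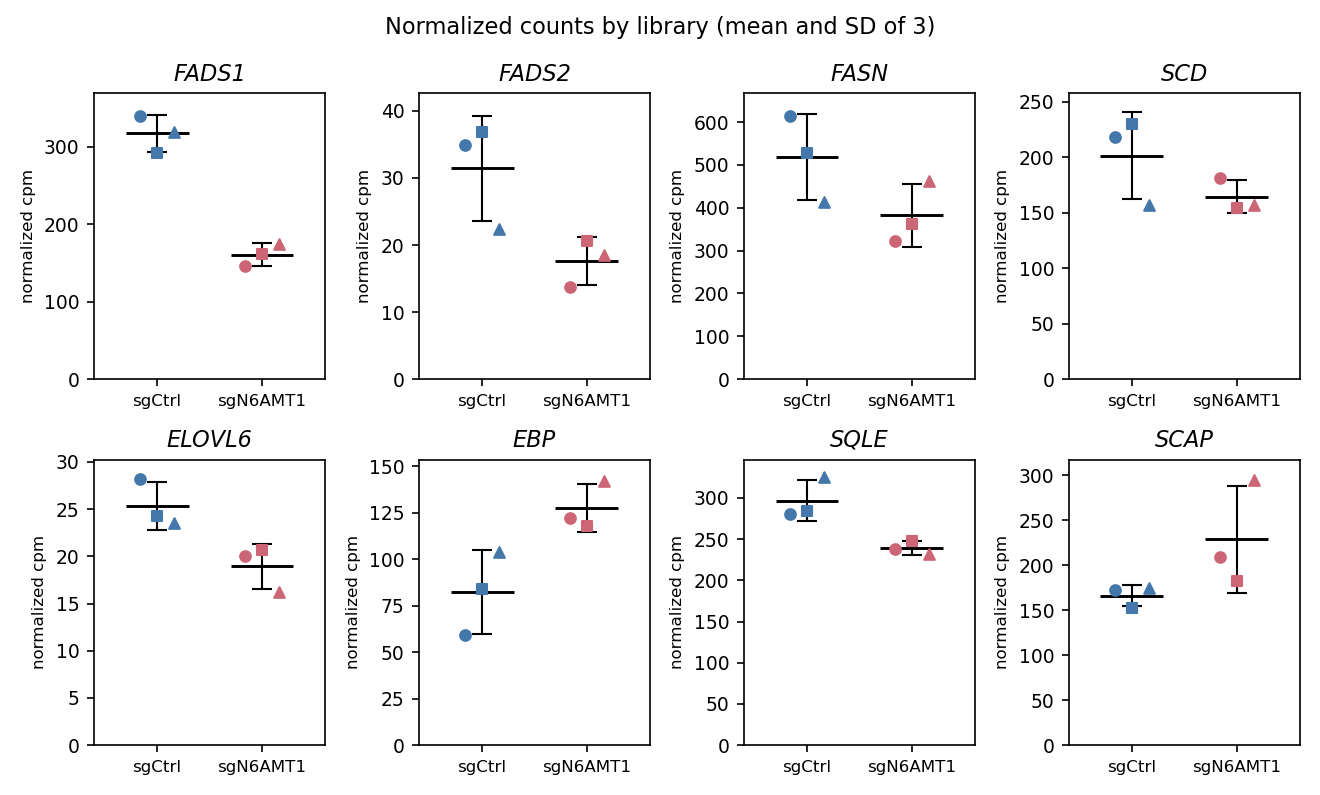
Normalized cpm of 8 genes in each library (circles, squares and triangles are replicates 1, 2 and 3) with the mean and SD of 3 libraries per condition; each vertical axis starts at 0. FADS1 separates the conditions most widely, EBP is higher in each sgN6AMT1 library, and FASN and SCD overlap between conditions.

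FADS1 is annotated at chr11:61799627-61829318 of GRCh38 (minus strand) and FADS2 at chr11:61792980-61867354 (plus strand) in GENCODE v44, so that the FADS1 model lies within that of FADS2 and the pair shares 490 exonic bases on opposite strands. FADS2 also shares 49 exonic bases with FEN1 on the same strand. Whether the authors counted by strand is not given in the sources used here, and the shared bases are 4.79% of the exonic bases of FADS1. Of the other tested genes within 100000 bases of FADS1 (MYRF, TMEM258, FEN1, FADS3 and RAB3IL1), none was differentially expressed, and their log2 fold changes ran from -0.32 for RAB3IL1 to 0.49 for TMEM258 (edgeR adjusted p = 0.0955). FADS3, a further desaturase of the family, was at -0.09 (edgeR adjusted p = 0.841).

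Promoter windows of 300 bases, from 250 before to 50 after the start, were found in RefSeq (GRCh38.p14) for 26 of the 30 genes and searched on both strands for the sterol regulatory element of the SREBF2 promoter (ATCACCCCAC, read from the SREBF2 window itself), the CCAAT box bound by NF-Y (CCAAT), the GC box bound by SP1 (GGGCGG) and the E-box (CACGTG). None of the other 25 genes with a window held those exact letters, and 0.0456% of all 35116 windows did. The match in SREBF2 was fixed by this choice of letters. Variant forms of the element were not searched, so a window without a match may still hold one. At least one CCAAT box was found for 20 of the 26 genes (34.6% of all windows), at least one GC box for 25 (45.0% of all windows) and an E-box for INSIG1, LSS, SC5D and SCAP (7.26% of all windows). Genes with several starts had several windows (35 windows for the 26 genes), and a gene was counted with a match in any of them. A count of genes is therefore not like the share of windows beside it. A match is a description of letters and not of binding. Sequences run 5′ to 3′ on the gene's strand, with motif matches of either strand in capitals. The 4 windows shown belong to the 2 differentially expressed genes, to FADS2 (partner of FADS1) and to SREBF2 (source of the element's letters). They are chr11:61816954-61817253 (minus strand) for FADS1, chr11:61816154-61816453 (plus strand) for FADS2, chrX:48521558-48521857 (plus strand) for EBP and chr22:41832855-41833154 (plus strand) for SREBF2.
FADS1: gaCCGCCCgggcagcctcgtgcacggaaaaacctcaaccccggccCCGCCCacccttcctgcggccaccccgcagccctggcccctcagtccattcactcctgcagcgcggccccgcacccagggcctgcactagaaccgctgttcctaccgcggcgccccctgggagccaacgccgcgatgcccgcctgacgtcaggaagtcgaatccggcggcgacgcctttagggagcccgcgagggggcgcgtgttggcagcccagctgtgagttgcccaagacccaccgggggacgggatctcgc
FADS2: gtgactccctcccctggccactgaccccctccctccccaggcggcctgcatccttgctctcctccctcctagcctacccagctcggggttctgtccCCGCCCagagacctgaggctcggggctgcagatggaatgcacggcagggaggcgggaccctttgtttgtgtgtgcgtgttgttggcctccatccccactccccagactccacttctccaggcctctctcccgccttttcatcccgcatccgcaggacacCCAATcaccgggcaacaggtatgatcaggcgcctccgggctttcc
EBP: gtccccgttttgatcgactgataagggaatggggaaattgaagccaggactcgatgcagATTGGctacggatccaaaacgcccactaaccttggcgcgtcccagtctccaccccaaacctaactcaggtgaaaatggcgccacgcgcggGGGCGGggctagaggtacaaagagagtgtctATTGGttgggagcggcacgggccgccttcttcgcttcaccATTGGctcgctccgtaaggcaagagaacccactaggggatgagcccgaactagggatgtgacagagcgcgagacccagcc
SREBF2: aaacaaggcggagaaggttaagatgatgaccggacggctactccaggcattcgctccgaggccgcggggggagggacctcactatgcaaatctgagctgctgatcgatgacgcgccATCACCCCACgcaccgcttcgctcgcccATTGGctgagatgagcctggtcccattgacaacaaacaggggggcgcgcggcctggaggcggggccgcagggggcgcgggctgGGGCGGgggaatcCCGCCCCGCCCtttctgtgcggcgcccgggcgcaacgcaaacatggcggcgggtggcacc
The RefSeq start of FADS1 lies 599 bases beyond this start of FADS2 and 800 bases beyond the other FADS2 start with a window, inside the FADS2 gene. The GENCODE model of FADS2 begins upstream of both starts, at 61792980, where no window was found. FADS1 holds 2 GC boxes and none of the other motifs, FADS2 in the window shown 1 CCAAT box and 1 GC box, EBP holds 3 CCAAT boxes and 1 GC box, and SREBF2 holds 1 sterol regulatory element, 1 CCAAT box and 3 GC boxes, a pair of which overlap.

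In the sterol branch, 11 genes were tested, 6 with negative and 5 with positive log2 fold changes and a median of -0.0078. EBP, which isomerizes the double bond of the sterol ring on the way to cholesterol, was the gene that passed. It had 59.1, 84.2 and 104 normalized cpm in sgCtrl and 122, 118 and 142 in sgN6AMT1. All sgN6AMT1 libraries lay above all sgCtrl libraries, but the sgCtrl libraries themselves spread widely. The level rose from 82.4 ± 22.4 to 127 ± 12.9 (SD, n = 3 each), or a log2 fold change of 0.63 with an SE of 0.19 (95% interval 0.22 to 1.03, edgeR adjusted p = 0.0480). EBP, at chrX:48521799-48528716, passed in 6 of 17 alternative fits. Its call was lost at the stricter threshold and with DESeq2 (adjusted p = 0.0784, in a fit that called 6.54% of its genes). It was also lost with RLE size factors, total counts or thinned libraries (edgeR adjusted p 0.0507 to 0.0532). After correction for GC content and transcript length EBP did not pass (edgeR adjusted p = 0.130). With replicate number also in that fit it did not pass either (edgeR adjusted p = 0.0814). The call was lost, too, without sgCtrl replicate 1, sgCtrl replicate 2, sgN6AMT1 replicate 2 or sgN6AMT1 replicate 3, where the edgeR adjusted p reached 0.208.

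SQLE, the squalene epoxidase and a rate-limiting step of the branch, had 281, 284 and 325 normalized cpm in sgCtrl and 238, 248 and 231 in sgN6AMT1. The values did not overlap, yet the difference was small, at a log2 fold change of -0.31 with an SE of 0.14 (edgeR adjusted p = 0.168). NSDHL, which takes part in removing the methyl groups at carbon 4 of the sterol ring, likewise did not overlap between conditions, with 47.8 ± 6.27 and 33.3 ± 6.43 normalized cpm (SD, n = 3 each; log2 fold change -0.47, edgeR adjusted p = 0.210). HSD17B7, the ketoreductase of the same demethylation, had the highest positive value of the 29, 0.68 (SE 0.35, edgeR adjusted p = 0.221), with 9.41, 10.4 and 23.6 normalized cpm in sgCtrl and 21.1, 23.4 and 24.9 in sgN6AMT1, so that sgCtrl replicate 3 lay among the sgN6AMT1 libraries. The 95% interval of SQLE lay below 0 (-0.61 to -0.01). Those of NSDHL (-0.96 to 0.02), HSD17B7 (-0.04 to 1.41) and the genes that follow included 0. CYP51A1, the lanosterol demethylase, was at -0.0078 (interval -0.30 to 0.29), FDFT1, the squalene synthase, at 0.09 (-0.25 to 0.43) and DHCR7, which carries out the last step to cholesterol in one route, at 0.07 (-0.34 to 0.49). LSS, the lanosterol synthase, was at -0.26 and MSMO1, the methyl sterol oxidase, at -0.31. TM7SF2, a sterol reductase, at 0.12 and SC5D, a sterol desaturase, at -0.28 had 8 to 25 and 20 to 36 counts in the 4 shallower libraries, and their intervals spanned -0.72 to 0.97 and -0.96 to 0.40. STARD4, which carries sterols between membranes, was at 0.0069 (interval -0.52 to 0.53), with levels from 27.7 to 31.8 normalized cpm in sgCtrl and from 27.7 to 31.6 in sgN6AMT1.

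In the mevalonate branch, 6 of 7 genes were tested, 5 with negative and 1 with a positive log2 fold change, none of which passed with edgeR or DESeq2 or had an unadjusted p under 0.05, and in no gene did the conditions lie apart. The values ran from -0.24 for HMGCS1, the synthase that makes HMG-CoA (122 ± 21.8 against 104 ± 8.71 normalized cpm; SD, n = 3 each; edgeR adjusted p = 0.414), to 0.16 for MVK, the mevalonate kinase (edgeR adjusted p = 0.736). Between them lay MVD, the diphosphomevalonate decarboxylase, at -0.17, ACAT2, the cytosolic thiolase at the entry, at -0.16, FDPS, the farnesyl diphosphate synthase, at -0.13 and IDI1, the isomerase, at -0.06. The widest of these 95% intervals was that of MVK, from -0.36 to 0.67, and the narrowest that of FDPS, from -0.44 to 0.18. The exons of ACAT2 share 454 bases with TCP1 on the opposite strand, or 17.2% of its exonic bases. The annotation also holds 8 pseudogenes named after FDPS, 3 each after IDI1 and CYP51A1, 2 after HSD17B7 and 1 after SCD, to which reads of these genes could map, so their counts are uncertain by an unknown amount.

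Of the 4 regulators, none was differentially expressed with edgeR or DESeq2, and SCAP alone had an unadjusted p under 0.05. SREBF2 had 125, 108 and 107 normalized cpm in sgCtrl and 104, 95.3 and 110 in sgN6AMT1, overlapping, with a log2 fold change of -0.14 with an SE of 0.17 (edgeR adjusted p = 0.649). SREBF1 had 83.3, 73.8 and 79.0 in sgCtrl and 60.1, 71.7 and 116 in sgN6AMT1. Its sgN6AMT1 replicates thus lay on both sides of the controls (log2 fold change 0.10, SE 0.22, edgeR adjusted p = 0.813), and without sgN6AMT1 replicate 3 the sign turned (-0.22). SCAP had 172, 152 and 174 in sgCtrl and 209, 182 and 295 in sgN6AMT1. Each sgN6AMT1 library was above each sgCtrl library, and replicate 3 stood far above the others (log2 fold change 0.46, SE 0.18, edgeR adjusted p = 0.107). INSIG1, itself a sensitive SREBP target, had 161, 172 and 153 in sgCtrl and 149, 147 and 196 in sgN6AMT1 (log2 fold change 0.02, SE 0.16, 95% interval -0.32 to 0.36, edgeR adjusted p = 0.951). For SREBF1, SCAP and INSIG1, sgN6AMT1 replicate 3 was the highest of the 6 libraries.

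The branches were also followed in single libraries, as the median over their tested genes of the log2 level, with the sgCtrl mean of each gene set to 0. The fatty acid branch stood at -0.40, -0.36 and -0.34 in sgN6AMT1 replicates 1 to 3 and between -0.14 and 0.13 in sgCtrl. The sterol branch stood at 0.04, 0.01 and -0.08 in sgN6AMT1, against -0.08 to 0.06 in sgCtrl, and the mevalonate branch at -0.19, -0.13 and -0.03 against -0.12 to 0.12. The regulators stood at -0.12 and -0.14 in sgN6AMT1 replicates 1 and 2 and at 0.41 in replicate 3. Over all genes tested the median lay between 0.0025 and 0.03 in the 6 libraries. Together, the 30 genes held 0.449%, 0.454% and 0.447% of the counts in sgCtrl and 0.383%, 0.394% and 0.434% in sgN6AMT1, with 95% Wilson intervals no wider than that of sgCtrl replicate 1 (0.434% to 0.465%), which cover counting error only. The intervals of sgCtrl replicate 3 (0.434% to 0.462%) and sgN6AMT1 replicate 3 (0.428% to 0.441%) overlapped. The share sums counts, so genes with many counts, such as FASN, ACLY and FADS1, weigh most in it, and it does not describe each gene alike.

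**Figure D3:**
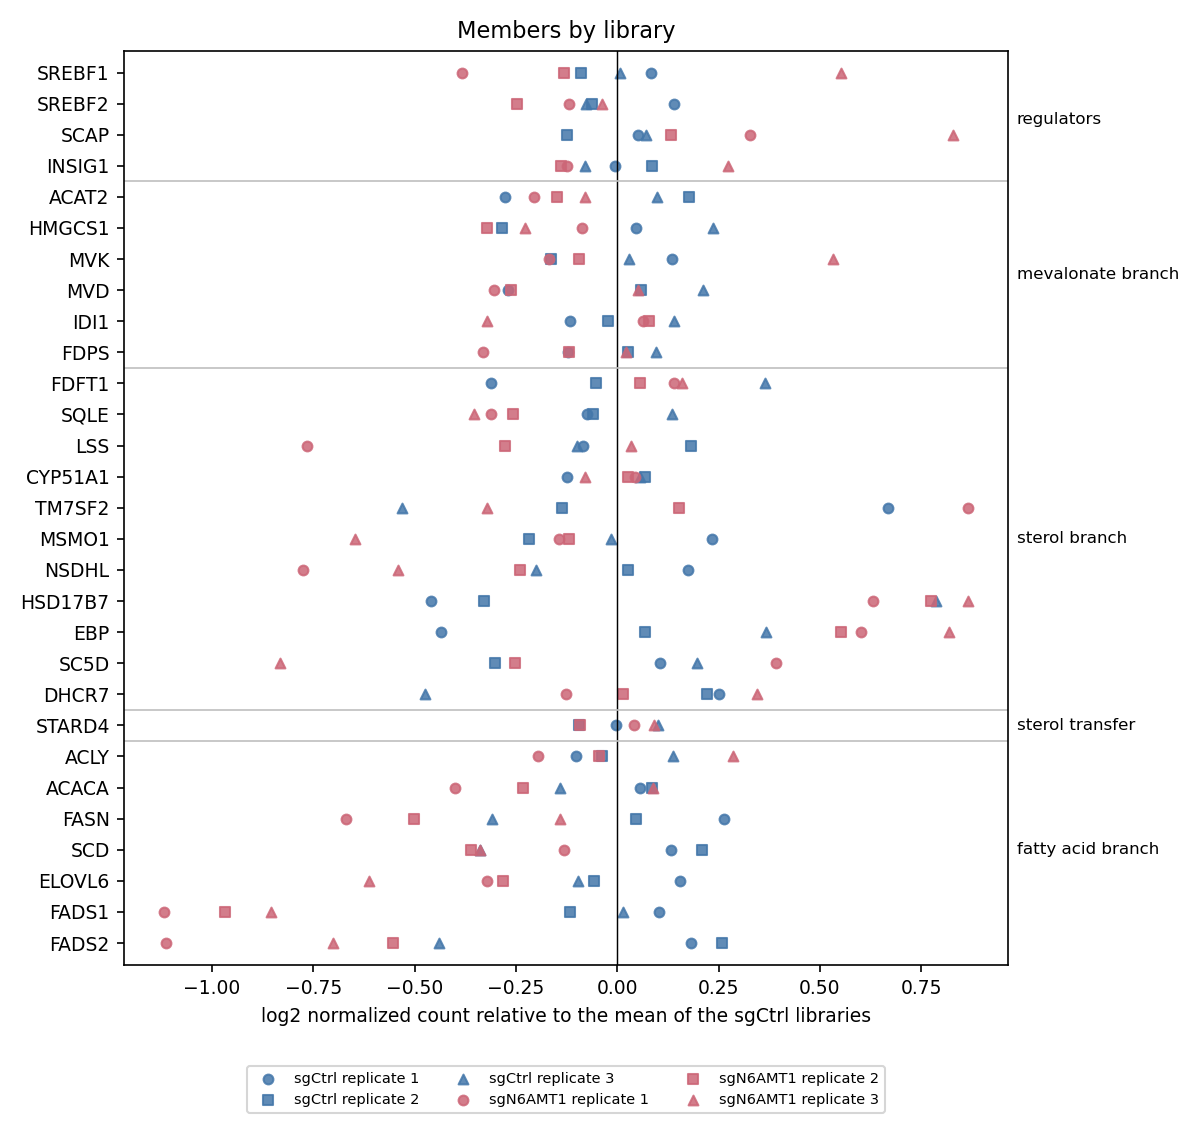
Log2 normalized count of the 29 genes tested in each library, with the sgCtrl mean of the gene at 0 (blue sgCtrl, red sgN6AMT1; circles, squares and triangles are replicates 1, 2 and 3). FADS1 and FADS2 lie to the left in the red libraries and EBP to the right, while sgN6AMT1 replicate 3 departs upward for SREBF1 and SCAP.

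Fold changes of all genes followed transcript GC content, the median being -0.14 over the fifth of genes lowest in GC and 0.19 over the fifth highest in GC. FADS1 has a GC content of 49.3%, near the middle of the genes tested, and with each library corrected for GC content and length its log2 fold change was -1.001 (edgeR adjusted p = 1.49e-04). In the same fit, which called 11.4% of all genes, FASN (-0.53, edgeR adjusted p = 0.0107; GC content 65.3%) and FADS2 (-0.93, edgeR adjusted p = 0.0380; GC content 59.0%) also passed, and the median of the fatty acid branch was -0.30. The medians of the mevalonate and sterol branches were -0.16 and -0.12, that of the regulators -0.01, and that of all genes -0.01.

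The levels of the genes were compared with one another per length, as normalized cpm per kb of the canonical transcript of GENCODE v44. In sgCtrl, ACAT2 (201 ± 32.3), FDPS (171 ± 13.1) and FDFT1 (157 ± 38.0; SD, n = 3 each) were the highest and did not separate from their neighbours in the order, while FDFT1 separated from the next gene, ACLY. ACLY, SQLE, CYP51A1, EBP, FADS1, FASN and INSIG1 followed, from 102 ± 8.95 to 55.8 ± 3.22, each overlapping its neighbour. INSIG1 separated from DHCR7. Between DHCR7 (43.6 ± 11.3) and ELOVL6 (3.86 ± 0.38), the lowest, neighbours separated between SCD and NSDHL, between SREBF2 and SREBF1, between LSS and FADS2 and between STARD4 and SC5D. SREBF2 (21.7 ± 1.89) thus stood above SREBF1 (16.1 ± 0.97), and FADS1 (72.7 ± 5.53) far above FADS2 (10.2 ± 2.55). In sgN6AMT1 FADS1 stood at 36.8 and EBP, close to it in sgCtrl at 73.2, at 113 normalized cpm per kb. The places of ACAT2 and FDPS in the order are less certain, given the exonic bases ACAT2 shares with TCP1 and the pseudogenes of FDPS.

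**Figure D4:**
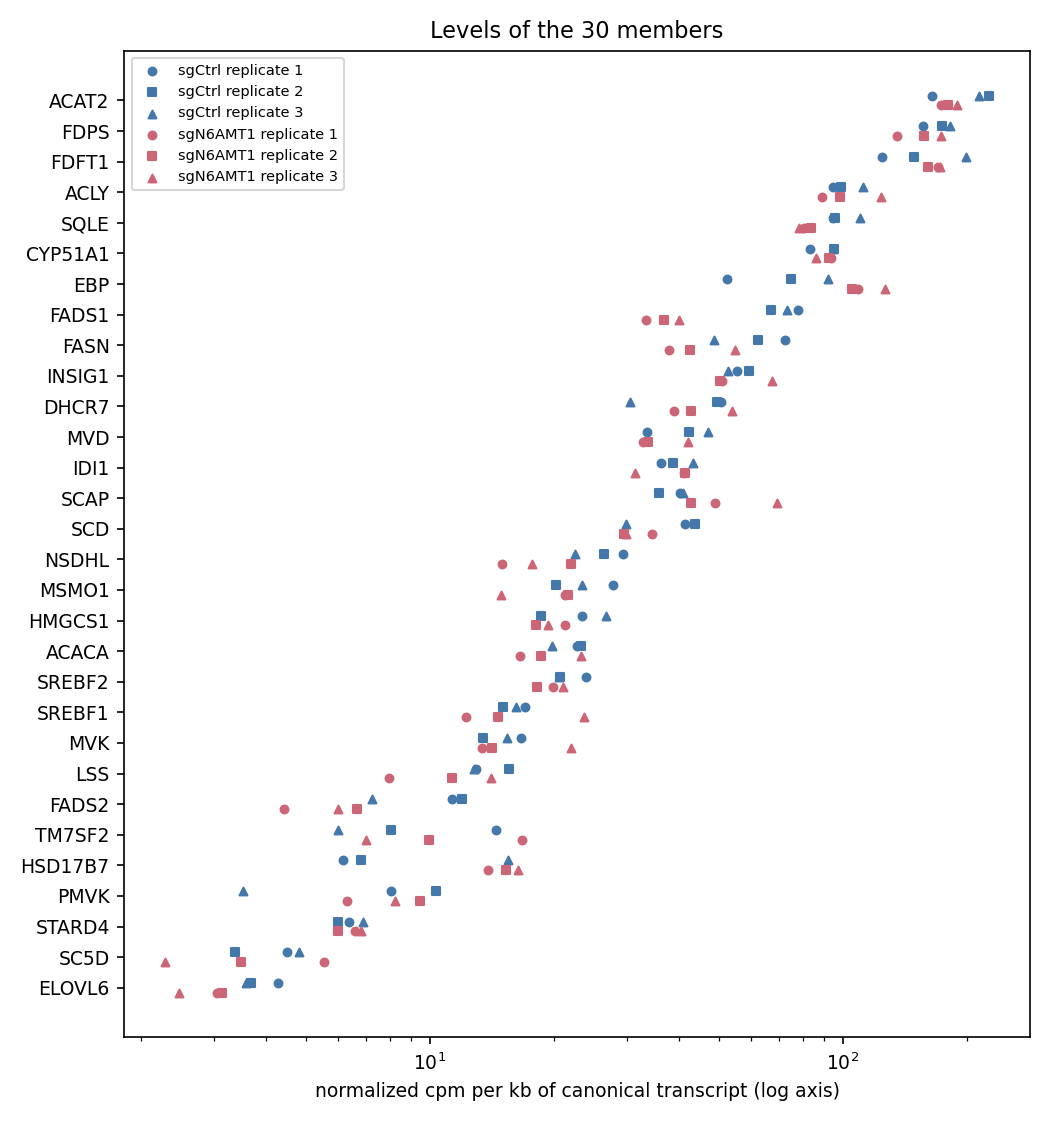
Normalized cpm per kb of canonical transcript for the 30 genes in each library (log axis; blue sgCtrl, red sgN6AMT1; circles, squares and triangles are replicates 1, 2 and 3), ordered by the sgCtrl mean. Levels range from 201 for ACAT2 to 3.86 for ELOVL6 in sgCtrl, and FADS1 and EBP are displaced in opposite directions in sgN6AMT1.

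A further 85 genes of the pathway, in 4 lists, were set beside these, and 58 of the 84 listed with counts were tested. Of these 4 were differentially expressed, 3 higher and 1 lower, or 6.90%, against 9.85% of all genes tested. Over all genes tested, 26.2% had an unadjusted p under 0.05 with edgeR. Their median log2 fold change was 0.0087, and 49.2% were negative. The members of 3 of the lists are described here. Among 11 tested genes of the isoprenoid side branches none passed with edgeR (lowest adjusted p = 0.121, with 2 at an unadjusted p under 0.05) or DESeq2, and their median log2 fold change was -0.0060. Of 16 genes of sterol uptake, transport, esterification and efflux, 1 rose, 12 had positive log2 fold changes and the median was 0.15. Of 22 further genes of fatty acid and glycerolipid synthesis, 1 rose, 14 had positive log2 fold changes and the median was 0.11.

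APOE, the apolipoprotein that takes up effluxed cholesterol and a target of liver X receptors, rose from 28.2, 47.3 and 29.5 normalized cpm in sgCtrl to 79.0, 71.2 and 90.5 in sgN6AMT1 (log2 fold change 1.19, SE 0.23, edgeR adjusted p = 0.00418). Its conditions lay well apart, and it passed in 17 of 17 alternative fits. Its transcript has a GC content of 69.0%, within the fifth highest in GC. With GC content and length corrected, its log2 fold change was smaller, at 0.92 (edgeR adjusted p = 0.0179). ELOVL1, which elongates very long saturated chains, rose from 60.5, 75.0 and 71.9 to 117, 92.4 and 124 (log2 fold change 0.67, SE 0.19, edgeR adjusted p = 0.0313). Its values did not overlap either, but it passed in 7 of 17 alternative fits, with an adjusted p of up to 0.124. With GC content and length corrected, ELOVL1 was at 0.46 and did not pass (edgeR adjusted p = 0.106).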

How the data were processed

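RNA-Seq libraries of K562 cells, 3 per condition, were analysed, grouped by their labels. Ribosome profiling and proteomics of the study were not analysed here. According to the methods, the authors trimmed reads with cutadapt (minimum length 15, quality cutoff 2), mapped them with HISAT2 to GRCh38 and overlapped them with the release 84 annotation, and the deposited values are raw counts per gene, without normalization. The labels list polyA RNA, whereas the methods describe stranded libraries of rRNA-depleted RNA from cleared lysates. Tool versions, the counting tool and its use of strand are not given in the sources used here. Reads mapping to several genes can therefore be split or lost.

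From the counts, low genes were removed with filterByExpr (default settings), and the 8324 left were TMM-normalized and compared by the quasi-likelihood functions glmQLFit and glmQLFTest of edgeR 4.0.16 under R 4.3.3, with condition as the only term. Standard errors and intervals were derived from the F statistics. Log2 values per library used a prior count of 2. Single values were compared by exact permutation in Python 3.11.15 with scipy 1.17.1. The libraries were separate transductions, and each pair within a condition differed by more than sampling noise (chi-square per degree of freedom 2.13 to 12.6). Total counts of 742470 to 5526904 limit low genes. GENCODE v44 held 18844 of the symbols, 860 under a newer name. Alternatives were DESeq2 1.42.0, other scalings and filters, a stricter threshold, a replicate block, thinning to 866894 counts, correction for GC content and length (values for 98.0% of genes tested) and leaving out each library. The fit was first tested on simulated data. Named genes are the 30 listed, pathway genes called, and N6AMT1, OR11A1 and OR2M4, and some genes under this rule are not reported here. The members and lists were chosen with earlier results of these data known.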

Additional observations from a re-analysis of the deposited data

How the results depend on the processing

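With the sgN6AMT1 libraries at different depths, genes with few counts such as TM7SF2, SC5D, HSD17B7, FADS2 and PMVK are limited by the shallow libraries. Of the 30 genes, the 2 called became 1 with DESeq2, RLE size factors, total counts or an adjusted p under 0.01. They became 5 (FADS1, FADS2, FASN, SQLE and FDPS) with GC content and length corrected together with the replicate block, a fit that called 16.2% of all genes. They ran from 1 to 2 with single libraries left out. Over all genes, 820 calls became 214 at an adjusted p under 0.01 and 1324 with GC content and length corrected and the replicate block, and ran from 220 (without sgCtrl replicate 2) to 951 (without sgN6AMT1 replicate 1) with single libraries left out, being 301 without sgCtrl replicate 1 and 495 and 538 without sgN6AMT1 replicates 2 and 3. The 4 calls among other pathway genes became 2 with DESeq2, 2 with thinned sgN6AMT1 libraries, 1 at an adjusted p under 0.01 and 7 with GC content and length corrected and the replicate block, and ran from 1 to 3 with single libraries left out. The causes of these moves were not tested, other than the stricter threshold.

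Replicate numbers are shared by the conditions, but the deviations of same-numbered libraries correlated at -0.00052, 0.08 and 0.19, so the numbers were not read as pairs. With the replicate block 1195 genes were called, or 14.4% of those tested (2 of the 30 genes, FADS1 and EBP). Not every library correlated best with its own number. The difference of N6AMT1 in cpm stayed negative in all settings, from -6.84 to -4.48 with single libraries left out.

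Of the 29 tested genes, 19 kept the sign of the log2 fold change in each setting that tested them (16 for HSD17B7, 17 for the others). The other 10, none of them called, changed sign in some. With GC content and length corrected, the values were -0.046 for SREBF1, -0.035 for MVK, 0.022 for IDI1, 0.056 for CYP51A1, -0.12 for TM7SF2, -0.10 for DHCR7 and -0.041 for ACLY. With the replicate block added to this they were -0.080 for SREBF1, -0.050 for MVK, 0.021 for IDI1, 0.055 for CYP51A1, -0.091 for DHCR7 and -0.048 for ACLY. STARD4 was at -0.015 with DESeq2, -0.0068 with RLE size factors, -0.014 with total counts and -0.093 with thinned libraries. CYP51A1 was at 0.018 with at least 10 counts in every library and 0.051 with thinned libraries, and INSIG1 at -0.0019 with DESeq2 and -0.00069 with total counts. With single libraries left out, the ranges were -0.057 to 0.29 for FDFT1, -0.052 to 0.075 for STARD4, -0.12 to 0.12 for ACLY, -0.070 to 0.030 for CYP51A1, -0.14 to 0.11 for INSIG1, -0.14 to 0.066 for IDI1, -0.13 to 0.53 for TM7SF2, -0.13 to 0.19 for DHCR7, -0.22 to 0.25 for SREBF1 and -0.12 to 0.29 for MVK.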
